A study of Mus musculus with 22 samples.

Results

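T-bet+ cDC2s and cDC1s of the mouse spleen were compared by bulk RNA-seq across all genes. Both are conventional dendritic cells (cDCs), the antigen-presenting cells that prime T cells. The comparison holds 6 of the 22 samples of the series, 3 of each subset, taken from the sample labels. No measured value was used to choose them. The study asked how cDC2s with and without the transcription factor T-bet (gene *Tbx21*) differ from each other and from cDC1s, by RNA-seq of spleen and mesenteric lymph node (MLN) and ATAC-seq of spleen. Both subsets came from Tbx21RFP-cre mice, in which a red fluorescent protein (RFP) marks cells that express T-bet. All mice, those of the cDC1 samples too, carried this knock-in allele, and no other genotype or treatment was compared. Each sample pooled cells of 2 mice. cDC1s were sorted as XCR1+ cells and T-bet+ cDC2s as CD11b+RFP+ cells, both from CD11c+MHCII+ cells without CD64, Ly6C and lymphocyte markers. The labels give RFP+ cells as T-bet+ and were followed where one sentence of the study's methods has it the other way round. The 3 T-bet- cDC2 samples of the spleen entered the same fit and share its estimate of the spread, and their values are given only as a reference.

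cDC1s are known for taking up dead cells, for presenting their antigens on MHC class I to CD8 T cells and for making IL-12, and they depend on the transcription factors IRF8 and BATF3. cDC2s are known for presenting antigen on MHC class II to CD4 T cells, depend in part on IRF4, ZEB2, KLF4 and Notch signalling, and in spleen sit in the bridging channels where EBI2 (*Gpr183*) positions them. XCR1, a chemokine receptor, and TLR3, a sensor of double-stranded RNA, are classical markers of cDC1s, and SIRPα, an inhibitory receptor for CD47, is a classical marker of cDC2s.

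The 6 samples held 20993220 to 27299012 reads counted on genes. All values below are counts normalized for library size by edgeR's TMM method and are not corrected for gene length. Means are given ± SD over 3 samples, and fold changes are T-bet+ cDC2 over cDC1 unless the sentence says otherwise. "Called" means a Benjamini-Hochberg adjusted p under 0.05 over all 14377 genes tested by edgeR's quasi-likelihood test, with 6 residual degrees of freedom. The study's methods give 6 to 10 weeks of age and both sexes for the mice of the study as a whole, while all 6 samples had *Xist* at 2559.9 to 3912 normalized counts and Y-linked genes at 0 to 0.89. cDC1 replicate 3 stood apart from the other 5 samples. The rank correlation of a sample's deviations with the GC content of transcripts was -0.30 in it and 0.18 to 0.32 in the others (7873 genes), and its effect is given beside the genes described here whose call it changed and, for the gene lists, in counts. In the 3 T-bet- cDC2 samples of the fit this correlation was -0.45, -0.30 and 0.27. Its part in their values and in the shared spread was not tested. Among markers of other cells, neutrophil genes summed to 2717 to 2929.9 in T-bet+ cDC2s and 909 to 1377 in cDC1s (5 of 10 tested higher in T-bet+ cDC2s, 0 lower), macrophage and monocyte genes to 11669.6 to 13616 in T-bet+ cDC2s and 5631 to 8389 in cDC1s (4 of 14 higher, among them *C1qa*, *C1qb* and *C1qc*, the last not called without cDC1 replicate 3, and 4 lower), B cell genes to 19829 to 22488 in T-bet+ cDC2s and 13899.7 to 16614 in cDC1s (3 of 7 higher, 1 lower) and NK cell genes to 142 to 238 in T-bet+ cDC2s and 1469 to 1769.7 in cDC1s (1 of 4 lower). The calls of *C1qa* and *C1qc* were lost in 1 and 4 of the 6 fits that left out 1 sample. In cDC1s the mean of the NK receptor gene *Klrk1* alone lay within the range of the NK cell sum. *Klrk1* is given below among genes that mark T-bet- cDC2s. Erythroid genes summed to 1069 to 1154 in T-bet+ cDC2s and 501 to 698 in cDC1s (1 of 7 higher), plasmacytoid DC genes to 4619 to 5438 in T-bet+ cDC2s and 2858 to 3567 in cDC1s (3 of 8 higher, 2 lower) and T cell genes to 59.8 to 199.5 in T-bet+ cDC2s and 108 to 149 in cDC1s (1 of 4 higher, 1 lower). Some defining markers were near 0, with means of at most 4.19 for *Cd3e*, 3.9 for *Ly6g*, 4.21 for *Ebf1* and 0.591 for *Ncr1*, and *Thy1* was at 0. Others were present and called higher in T-bet+ cDC2s, among them the B cell genes *Cd79b*, *Cd22* and *Blk* (3.21, 3.67 and 5.67 on the log2 scale), the neutrophil genes *S100a8*, *S100a9* and *Camp* (1.87, 1.60 and 1.91) and the T cell kinase gene *Lck*, which had a mean of 35.1 and no read in cDC1s. Of all tested genes 18.2% were called, against 14.3% of the tested erythroid markers and 25% (NK cell) to 62.5% (plasmacytoid DC) in the other lists of this paragraph. The part of these cells in the results was not tested. In bulk samples fewer cells of a type and less RNA per cell cannot be told apart.

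The transcripts of the sorted proteins checked the labels. *Xcr1* had 18966, 20855 and 27505 normalized counts in the cDC1 samples and 163, 166 and 105 in the T-bet+ cDC2 samples. *Tbx21* had 545, 587 and 407 in T-bet+ cDC2s against 20.97, 29.1 and 3.43 in cDC1s, and *Itgam*, which encodes CD11b, had 1056, 1295 and 801 against 24.8, 13.6 and 36.6. The groups did not overlap for any of these genes, as the sort required, and these 3 differences are not findings. *Sirpa* (chromosome 2, 129592835 to 129632228, mm10) and *Tlr3* (chromosome 8, 45395665 to 45411080) were not part of the sort. *Sirpa* had 23633, 20531 and 19293 in T-bet+ cDC2s and 199, 198 and 102 in cDC1s. *Tlr3* had 4200.1, 7458 and 10496 in cDC1s and 52.3, 74.4 and 60.0 in T-bet+ cDC2s. Every T-bet+ sample thus lay above every cDC1 sample for *Sirpa*, by 6.99 on the log2 scale (SE 0.49, adjusted p = 1.5e-05, edgeR), and below every cDC1 sample for *Tlr3* (-6.89, SE 0.42, adjusted p = 6.6e-06, edgeR). All 4 marker genes went with their labels.

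Of 14377 genes tested, 2613 were called (18.2%), of which 1434 (9.97%) were higher in T-bet+ cDC2s and 1179 (8.2%) higher in cDC1s. An unadjusted p under 0.05 was found for 4346 genes. Leaving out 1 sample lowered the counts at most to 920 (without cDC1 replicate 2) on the T-bet+ side and to 723 and 772 (without T-bet+ replicates 1 and 3) on the cDC1 side. Groups of 3 samples did not overlap for 5731 genes (39.9%), so a lack of overlap alone was common. Of the 2613 called genes, 2609 did not overlap. Where a lack of overlap is given below for called genes, it describes the samples and adds almost nothing to the call. The median log2 fold change over all tested genes was 0.03 and the median size among called genes was 2.14. Over 3 on the log2 scale were 569 genes higher in T-bet+ cDC2s and 319 higher in cDC1s. A core of 1287 genes, with a size over 1.5 and at least 50 normalized counts by the mean of the 6 samples, had 707 genes higher in T-bet+ cDC2s and 580 higher in cDC1s. All 3 cDC1 samples held no read for 93 of the called genes, and all 3 T-bet+ samples none for 26.

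**Figure D1:**
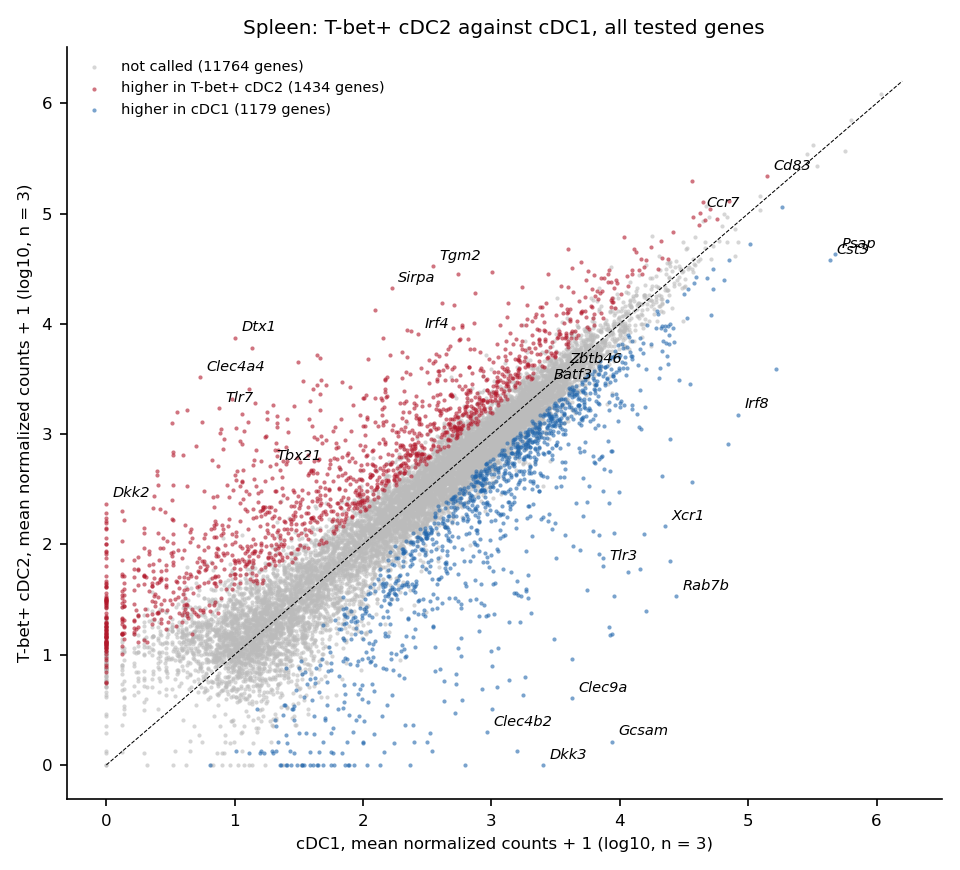
Mean normalized counts plus 1 of all tested genes in cDC1s (x axis) and T-bet+ cDC2s (y axis) of the spleen, 3 samples each, on log10 axes. The 1434 red genes were called higher in T-bet+ cDC2s and the 1179 blue genes higher in cDC1s. *Batf3* and *Zbtb46* lie on the diagonal.

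Among called genes of this level that did not overlap, the 12 with the largest difference toward cDC1s were *Dkk3*, *Gcsam*, *Clnk*, *Mab21l3*, *Naalad2*, *Clec9a*, *RP23-379L17.3*, *Clec4b2*, *Efcc1*, *Rab7b*, *P3h2* and *Cd207*. *Dkk3*, a secreted protein of the Dickkopf family, had 2092, 2376 and 3129.9 normalized counts in cDC1s and no read in any T-bet+ sample. It was at least 2678-fold higher in cDC1s when the absence is read as 3 counts over the 3 samples. On the same footing *Clnk*, an adaptor of immune receptor signalling, was at least 652-fold higher in cDC1s and *Naalad2*, a peptidase, at least 244-fold. *RP23-379L17.3* was at least 151-fold and *Efcc1* at least 118-fold higher in cDC1s, although both were much lower in cDC1 replicate 3 (231, 147 and 24.0 and 142, 139 and 35.5). *Gcsam*, a signalling adaptor first described in germinal centre B cells, had 7698, 7981 and 10227 in cDC1s and 2 reads in all T-bet+ samples together, a ratio of 13741 (95% exact Poisson interval 3804 to 113463). *Rab7b*, a GTPase of late endosomes, had 29187, 25106 and 28572 in cDC1s and 47.7, 41.6 and 9.83 in T-bet+ cDC2s. *Cd207*, the lectin langerin, had 17239.7, 14489 and 16151 in cDC1s against 39.3, 29.2 and 2.95. Leaving out the sample in which a gene's few T-bet+ reads lay moved the log2 fold changes of *Gcsam* from -13.50 to -16.06 (T-bet+ replicate 1), *Mab21l3* from -11.82 to -13.62 and *P3h2* from -9.63 to -11.43 (both T-bet+ replicate 3), while *RP23-379L17.3* was at -9.42 without cDC1 replicate 1 against -10.07. All 4 were called in each of these fits.

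Toward T-bet+ cDC2s 11 of the 12 were *Dkk2*, *Slc27a2*, *Dmrtb1*, *Srms*, *Tmem132c*, *Ptk6*, *AC087183.3*, *Slc8a2*, *Dtx1*, *Clec4a4* and *AC171680.3*. The first 8 had no read in any cDC1 sample. *Dkk2*, a secreted inhibitor of Wnt signalling, had 270.1, 175 and 254 normalized counts in T-bet+ cDC2s and was at least 228-fold higher there. Thus one member of the Dickkopf family stood at the head of each side. *Slc27a2*, which imports and activates fatty acids, was at least 191-fold higher in T-bet+ cDC2s and *Dmrtb1*, a DM-domain transcription factor, at least 168-fold. *Srms* and *Ptk6* encode related tyrosine kinases and lie next to each other on chromosome 2, from 181205562 to 181213185 and from 181193721 to 181202789. *Srms* had 81.3, 115 and 293 and *Ptk6* 112, 171 and 139.6 in T-bet+ cDC2s, at least 158-fold and 139-fold over cDC1s. Without T-bet+ replicate 3, the sample with the most *Srms*, its log2 fold change was 9.62 against 10.35. In T-bet- cDC2s the means of these 2 genes were 10.5 and 5.91. *Dtx1*, a ubiquitin ligase of the Deltex family and a target of Notch signalling (chromosome 5, 120680202 to 120711927), had 7132, 7423 and 7896 in T-bet+ cDC2s and 4.77, 8.72 and 13.7 in cDC1s, or 9.69 on the log2 scale (SE 0.41, adjusted p = 1.5e-06, edgeR). *AC171680.3* had 1472, 1709.6 and 1541 against 0, 1.94 and 5.72 in cDC1s, a log2 fold change of 9.28 and of 10.50 without cDC1 replicate 3.

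Ranked by normalized counts in the higher subset among called genes with a size over 1.5, cDC1s were led by *Psap* and *Cst3*. *Psap*, the precursor of saposins, had 410802, 445273 and 564385 in cDC1s and 47687, 38433 and 43080.1 in T-bet+ cDC2s, and *Cst3*, which encodes the secreted protease inhibitor cystatin C, had 535883, 342037 and 433087 in cDC1s against 42524, 31829 and 38374. *Ppt1*, a lysosomal thioesterase, had 145522, 159754 and 193152 in cDC1s against 3726, 3994 and 3871, or -5.43 on the log2 scale (SE 0.22, adjusted p = 1.3e-06, edgeR). *Naaa*, a lysosomal amidase, *Gusb*, which encodes β-glucuronidase, and *Mpeg1*, which encodes perforin-2, followed with -6.41, -3.64 and -6.63. The remaining 4 were *Irf8*, *Wdfy4*, *Calr* and *Ece1*. All 10 had cDC1 samples above T-bet+ samples without overlap.

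The 10 genes with the highest counts on the T-bet+ side were *Fth1*, *Il1b*, *Mdh2*, *Gsn*, *Tbc1d4*, *Rrad*, *Napsa*, *Limd2*, *Tgm2* and *H2-DMb2*. *Tgm2*, tissue transglutaminase, had 33310.3, 34783 and 31371 against 378, 303 and 375 in cDC1s (6.56, SE 0.27, adjusted p = 1.5e-06, edgeR). *Mdh2*, mitochondrial malate dehydrogenase, had 60341, 65554 and 59535 against 12050.3, 9599 and 10759, and *Gsn*, the actin-severing protein gelsolin, 52491, 49882 and 47776 against 17321, 15600.5 and 19338. *Fth1*, the ferritin heavy chain, had 231422, 188663 and 171839 against 51848, 37979 and 20143. *Rrad*, a small GTPase, had 53761, 45349.6 and 43679 against 6170.0, 4360.4 and 1289 and *Limd2* 41255, 32989 and 34660.0 against 7744, 5491 and 1758. For *Fth1*, *Rrad* and *Limd2*, cDC1 replicate 3 was the lowest of the cDC1 samples, and without it the log2 fold changes were 2.13, 3.17 and 2.45 (adjusted p = 0.0078, 0.026 and 0.0074, edgeR).

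The differences were then described by 22 gene lists. Each count is to be set beside the shares over all tested genes, 9.97% called higher in T-bet+ cDC2s and 8.2% called higher in cDC1s. cDC1 marker genes were lower in T-bet+ cDC2s for 21 of 22 tested (median log2 fold change -6.10). These lists hold genes known to separate the subsets. *Xcr1*, *Itgam* and *Tbx21* follow from the sort, in whichever list they are counted. *Clec9a*, a receptor for actin exposed on dead cells, had 3490.1, 4431 and 4840.2 in cDC1s and 1.87, 6.2 and 0.983 in T-bet+ cDC2s. For *Clec9a* the log2 fold change was -10.37, or -11.41 without T-bet+ replicate 2. *Irf8*, the transcription factor that cDC1s depend on (chromosome 8, 120736358 to 120756694), had 94829, 90914 and 63859 in cDC1s against 1495, 1194 and 1804. The log2 fold change of *Irf8* was -5.796 (SE 0.43, adjusted p = 2.1e-05, edgeR), and its mean in T-bet- cDC2s was 6723. *Batf3*, the other factor that cDC1s depend on, had 3793, 2212 and 2140.4 in cDC1s and 2712, 1987 and 3613 in T-bet+ cDC2s. The samples of the subsets were interleaved (0.03, SE 0.38, adjusted p = 0.97, edgeR), so *Batf3* was the 1 cDC1 marker of 22 that did not pass. *Wdfy4*, which cDC1s need for cross-presentation, had 20652, 44258 and 88581 in cDC1s against 11349.9, 11548 and 12931. Its call (adjusted p = 0.024, edgeR) was lost without cDC1 replicate 3 (0.075, log2 fold change -1.45 against -2.10), without any 1 of the T-bet+ samples and with the replicate number as a block (0.076). *Id2*, another factor of the lineage, had 35796, 23463 and 34819 in cDC1s against 17383, 17590.3 and 20703, and its call at 0.048 was lost in the blocked fit (0.12) and in 5 of the 6 fits that left out 1 sample.

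Of 20 cDC2 markers, 18 were higher in T-bet+ cDC2s than in cDC1s and 1 was lower (median 4.83). *S100a4* had 5022, 3512 and 4969 in T-bet+ cDC2s and 34.3, 18.4 and 37.8 in cDC1s, *Cd209a* 7904, 7719.8 and 6478 against 92.4, 99.8 and 237 in cDC1s, and *Esam*, an adhesion molecule that marks Notch2-dependent splenic cDC2s, 3084, 2610.5 and 3631 against 480.3, 317 and 508 in cDC1s. None of these overlapped between subsets. The inhibitory Fc receptor gene *Fcgr2b* went the other way, with 1652, 1622 and 1734 in cDC1s and 419, 376 and 347 in T-bet+ cDC2s (-2.13, SE 0.22, adjusted p = 0.00014, edgeR), while T-bet- cDC2s had 6338, 4966 and 4124. The lectin gene *Clec10a* had means of 25.4 and 9.61 and did not pass (adjusted p = 0.13, edgeR), against 2066 in T-bet- cDC2s. A list of genes that mark T-bet- cDC2s divided evenly, with 6 of 14 higher and 6 lower in T-bet+ cDC2s. *Clec12a*, *Ccr2*, *Klrk1*, *Lyz2*, *P2rx7* and *Cd14* were the lower 6, the last with a call that was lost in 5 of the 6 fits that left out 1 sample. *Clec12a*, an inhibitory lectin, had 237, 156 and 143 in T-bet+ cDC2s, 5128, 4567 and 5818 in cDC1s and 5721, 4849 and 4539 in T-bet- cDC2s. For *Klrk1*, which encodes NKG2D, the means were 139, 1564 and 2193 in the same order.

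**Figure D2:**
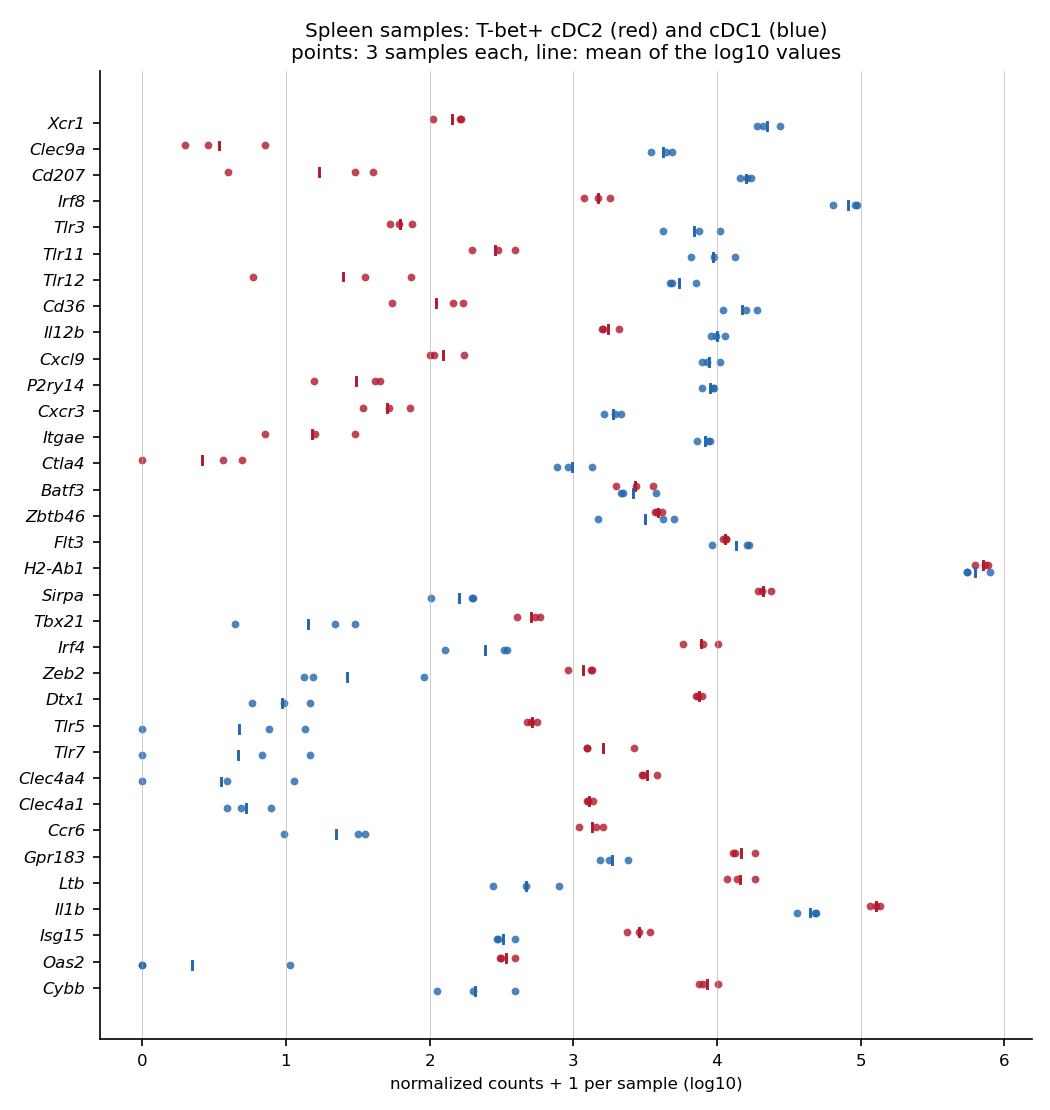
Normalized counts plus 1 on a log10 axis for 34 genes in each of the 3 T-bet+ cDC2 samples (red) and 3 cDC1 samples (blue) of the spleen, with short lines at the mean of the log10 values. *Batf3*, *Zbtb46*, *Flt3* and *H2-Ab1* overlap between the subsets, and in the other 30 genes the samples stand apart.

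Of 33 tested transcription factors of the DC lineage, 10 were higher in T-bet+ cDC2s and 3 lower (median 0.65). *Irf4*, a regulator of cDC2s, had 7999, 10200.0 and 5827 in T-bet+ cDC2s and 128, 327 and 343 in cDC1s (4.91, SE 0.45, adjusted p = 7.6e-05, edgeR). *Zeb2*, which represses the cDC1 fate, had 921, 1341 and 1319 against 12.4, 14.5 and 90.4 in cDC1s, with 7816, 2644 and 4683 in T-bet- cDC2s. *Klf4*, a zinc-finger factor of the cDC2 lineage, had 2701, 3368 and 4185 against 335, 589 and 244 in cDC1s, and *Prdm1*, which encodes Blimp-1, had 443, 549 and 326 against 36.2, 25.2 and 57.2 in cDC1s. In each of these 4 genes all T-bet+ samples were above all cDC1 samples, with cDC1 replicate 3 the highest cDC1 sample for *Zeb2*, where the log2 fold change was 4.95 and 6.45 without that sample. *Tcf4*, *Runx2*, *Rora*, *Nr4a1* and *Nr4a3* were also higher, by 1.26, 1.38, 2.86, 1.11 and 1.36. *Rbpj*, the DNA-binding partner of Notch, was lower (-1.04, adjusted p = 0.025, edgeR), and the blocked fit did not call it (0.0804). Without 1 sample the call was lost in 5 of 6 fits for *Rbpj*, in 6 for *Nr4a3* and in 1 for *Tcf4*. With the block 1 factor was lower in T-bet+ cDC2s, and likewise 1 without cDC1 replicate 3. *Zbtb46*, which marks the whole cDC lineage, had 4151, 3826 and 3678 against 4233, 5036 and 1475 in cDC1s (0.12, SE 0.66, adjusted p = 0.94, edgeR). *Spi1* (PU.1) had 36828, 32365 and 33409.8 against 25093, 18611 and 4395 in cDC1s and did not pass (adjusted p = 0.39, edgeR).

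Toll-like receptors (TLRs), which sense microbial products, and their adaptors divided between the subsets. Of 28 tested, 6 were higher in T-bet+ cDC2s and 6 higher in cDC1s. On the cDC1 side were *Tlr3*, *Tlr11* and *Tlr12*, the last 2 being receptors for profilin of protozoan parasites. *Tlr11* had 6616, 9509 and 13339 in cDC1s and 197, 299 and 394 in T-bet+ cDC2s, and *Tlr12* 4729, 4869 and 7109.8 in cDC1s against 34.6, 72.6 and 4.91. The log2 fold change of *Tlr12* was -7.21 and, without T-bet+ replicate 2, -8.12. On the T-bet+ side were *Tlr7*, a sensor of single-stranded RNA, *Tlr5*, the flagellin receptor, and *Tlr1* and *Tlr2*, which recognize bacterial lipopeptides. *Tlr7* had 1244, 2664 and 1250.2 in T-bet+ cDC2s and 0, 5.81 and 13.7 in cDC1s (8.07, SE 0.85, adjusted p = 0.00018, edgeR). *Tlr5* had 504, 476 and 562 against 6.67, 0 and 12.6 in cDC1s (6.33, SE 0.73, adjusted p = 0.00032, edgeR). Neither receptor overlapped between the subsets, and without cDC1 replicate 3 the log2 fold changes were 9.15 and 7.20. *Tlr1* and *Tlr2* were higher by 3.60 and 1.58. Among adaptors *Ticam2*, which links TLR4 to TRIF, had 723, 799.9 and 946 in T-bet+ cDC2s and 32.4, 33.9 and 74.4 in cDC1s. *Myd88* had means of 3739.7 ± 169 and 3946 ± 356 and *Unc93b1*, the chaperone of endosomal TLRs, 34841 ± 2183 and 37950.0 ± 4018. Neither passed (adjusted p = 0.82 and 0.65, edgeR), with log2 fold changes of -0.08 (SE 0.16) and -0.12 (SE 0.15). *Tlr9* and *Tlr4* were low in both subsets, with means of 61.3 and 66.2 in T-bet+ cDC2s and 29.6 and 158 in cDC1s, and did not pass.

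C-type lectin receptors bind carbohydrates and other ligands on pathogens and cells. Of 25 tested, 11 were higher in T-bet+ cDC2s and 6 higher in cDC1s (median 1.38). A run of them lies on chromosome 6 of mm10, from *Clec4a1* (start 122921848) to *Clec4e* (end 123289870). Within it *Clec4a1*, *Clec4a3*, *Clec4a4*, *Clec4b1*, *Clec4a2*, *Clec4n* and *Clec4e* were higher in T-bet+ cDC2s, *Clec4d* was low and not called (means 12.8 and 3.63), and *Clec4b2* was higher in cDC1s. The call of *Clec4e* (2.13) was lost in 3 of the 6 fits that left out 1 sample. *Clec4a4*, which encodes the splenic cDC2 antigen DCIR2, had 3049.9, 3812 and 3021 in T-bet+ cDC2s and 0, 2.91 and 10.3 in cDC1s (9.58, SE 0.75, adjusted p = 2.96e-05, edgeR). *Clec4a1* had 1260.0, 1249.9 and 1361 against 2.86, 3.87 and 6.86 in cDC1s (8.14, SE 0.44, adjusted p = 4.01e-06, edgeR). *Clec4b2*, which follows *Clec4a2* in the run (chromosome 6, 123172893 to 123204671), had 0, 0 and 2.95 against 886, 747 and 1128 in cDC1s, and its mean in T-bet- cDC2s was 8.97. It was thus high in cDC1s alone among the spleen subsets measured, between neighbours that were high in both cDC2 subsets. Without T-bet+ replicate 3, the 1 T-bet+ sample with reads, its log2 fold change went from -9.75 to -12.84, and that of *Clec4a4* went to 11.03 without cDC1 replicate 3. The *Clec4a* genes are close paralogs, and how uniquely aligned reads divide between them is uncertain. Elsewhere *Clec7a*, which encodes the β-glucan receptor Dectin-1, had 14127, 12172 and 6685 in T-bet+ cDC2s and 1881, 2088 and 1668 in cDC1s, and *Ly75*, which encodes DEC-205, 512, 527 and 593 against 2916, 6309 and 9823 in cDC1s.

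Genes of antigen presentation on MHC class I were called lower in T-bet+ cDC2s for 8 and higher for 4 of 29 tested (median -0.34). The lower 8 held the peptide transporter genes *Tap1* (-1.19) and *Tap2* (-1.15), the chaperone genes *Calr* (-1.56) and *Canx* (-1.24), the peptide editor *Tapbpl* (-1.39), the immunoproteasome subunit *Psmb9* (-0.72), *Wdfy4* and the transactivator *Nlrc5*. *Tap2* had 14676, 13345 and 17104 in cDC1s and 7263, 6397 and 6615 in T-bet+ cDC2s. *Nlrc5* varied in cDC1s (1133, 2768 and 5719.9). Its call (adjusted p = 0.029, edgeR) was lost without cDC1 replicate 3 (0.095, log2 fold change -1.31 against -2.02) and with the block (0.077). Leaving out cDC1 replicate 2 or any 1 of the T-bet+ samples lost the call too. Without cDC1 replicate 3, as with the block, 5 genes of this list were lower. Among the 4 higher genes were *Cybb*, *Rac2* and *Cyba*, which encode subunits of the phagocyte NADPH oxidase, the enzyme that makes reactive oxygen in phagosomes. The calls of *Psmb9* and *Cyba* were also lost with the block (adjusted p = 0.095 and 0.053, edgeR), and those of *Psmb9*, *Cyba*, *Tap1* and *Canx* in 5, 3, 2 and 2 of the 6 fits that left out 1 sample. *Cybb*, the catalytic subunit, had 8000.0, 10139 and 7494 in T-bet+ cDC2s and 112, 200.5 and 390.1 in cDC1s (5.19, SE 0.49, adjusted p = 9.1e-05, edgeR), with 35330.3, 18022 and 24334 in T-bet- cDC2s. The class I heavy chains *H2-K1* and *H2-D1* and *B2m* did not pass (log2 fold changes 0.59, 0.23 and 0.43).

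Of 19 genes of MHC class II presentation, 7 were higher in T-bet+ cDC2s and 1 was lower (median 0.41). The classical chains did not pass. *H2-Ab1* had 775130.0, 623258 and 732404 in T-bet+ cDC2s and 790996, 551208 and 551174 in cDC1s (0.17, SE 0.24, adjusted p = 0.71, edgeR), and *H2-Aa*, *H2-Eb1* and the invariant chain *Cd74* were at 0.36, 0.28 and 0.15. MHCII protein was part of the sort of both subsets. The β chains of H2-DM, which loads peptides onto class II, differed in opposite directions. *H2-DMb2* had 35257, 30625 and 30426 in T-bet+ cDC2s and 4544, 3672 and 4570.2 in cDC1s (2.91, SE 0.18, adjusted p = 6.8e-06, edgeR), whereas *H2-DMb1* had 10477, 9222 and 8837 against 25464, 19599.7 and 21986 in cDC1s (-1.23, SE 0.18, adjusted p = 0.0013, edgeR). Both genes lie side by side on chromosome 17 (34143307 to 34151555 and 34153072 to 34160230) and are near-identical, so the division of reads between them is uncertain. *H2-DMa* did not pass (-0.15). *H2-Oa*, a subunit of the H2-DM inhibitor H2-O, was higher by 1.48, and *H2-Eb2* had 1493, 1355 and 1887 against 148, 151 and 384 in cDC1s (2.79, and 3.39 without cDC1 replicate 3).

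Cathepsins and lysosomal proteases, with their inhibitors, were higher in T-bet+ cDC2s for 9 of 17 tested and lower for 2 (median 0.92). *Ctsa* had 22493, 21527 and 21019 in T-bet+ cDC2s and 4092, 3386 and 4372 in cDC1s, and *Ctsd* 2921, 2403 and 2256 against 751, 542 and 755 in cDC1s. *Ctss*, which trims the invariant chain, *Ctsh*, *Ctsz*, *Ctsc*, *Ctso* and *Ctsl* were higher by 0.92 to 1.69 on the log2 scale, and the call of *Ctso* was lost in 3 of the 6 fits that left out 1 sample. The inhibitor genes went opposite ways, with *Cst7*, which encodes cystatin F, at 335, 338 and 206 in T-bet+ cDC2s and 19.1, 11.6 and 11.4 in cDC1s, while *Cst3* was lower as given above. *Ifi30*, the lysosomal thiol reductase, was higher by 1.58.

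Of 26 cytokine genes tested, 9 were higher in T-bet+ cDC2s and 3 higher in cDC1s (median 0.58). *Il12b*, which encodes the p40 chain of IL-12, had 9806, 9037 and 11404 in cDC1s and 2091, 1588 and 1603 in T-bet+ cDC2s (-2.52, SE 0.24, adjusted p = 0.000104, edgeR). *Il15* had 851, 696 and 1042 in cDC1s against 216, 199 and 294. All cDC1 samples were above all T-bet+ samples for both. *Ltb*, which encodes lymphotoxin β, had 13827, 11813 and 18492 in T-bet+ cDC2s and 794, 469.7 and 276 in cDC1s (4.84, SE 0.81, adjusted p = 0.0027, edgeR). *Il1b* had 137178, 128216 and 116655 against 49219, 48465 and 35939 in cDC1s (1.52, SE 0.23, adjusted p = 0.0016, edgeR), and *Vegfa* had 1246, 869.9 and 732 against 41.0, 69.7 and 10.3 in cDC1s. *Areg*, which encodes amphiregulin, a ligand of the epidermal growth factor receptor, had 367, 251 and 239 against 18.1, 14.5 and 3.43 in cDC1s. In these 4 genes the lowest T-bet+ sample exceeded the highest cDC1 sample. *Il1rn*, *Lta*, *Flt3l*, *Osm* and *Tnfsf9* were the other 5, at 3.16, 2.26, 2.02, 1.94 and 1.29. *Il6*, *Il10*, *Il23a* and *Tnf* did not pass (log2 fold changes -0.10, 0.29, 1.58 and 0.70), and *Il10* and *Il23a* had means of at most 13.7 in either subset.

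Chemokine genes were higher in cDC1s for 7 and in T-bet+ cDC2s for 5 of 20 tested (median -0.49). *Cxcl9*, a ligand of CXCR3 that draws activated T cells, had 8468, 7831 and 10499.5 in cDC1s and 100.01, 174 and 107 in T-bet+ cDC2s (-6.13, SE 0.30, adjusted p = 2.6e-06, edgeR). *Ccl22*, a ligand of CCR4, had 2302, 1564 and 2374 in cDC1s against 342, 299 and 306. *Ccl3*, *Ccl4* and *Ccl5*, inflammatory chemokines, were all higher in T-bet+ cDC2s, by 4.05, 1.56 and 1.92. *Ccl3* had 10266, 8430.2 and 10541 in T-bet+ cDC2s and 683, 661 and 416 in cDC1s, without overlap.

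Receptors for chemokines and other positioning cues differed in both directions, 9 of 26 higher in T-bet+ cDC2s and 7 higher in cDC1s. *Gpr183*, which encodes EBI2, had 13325, 18339.7 and 12889 in T-bet+ cDC2s and 1769, 2389 and 1536 in cDC1s (2.97, SE 0.25, adjusted p = 4.2e-05, edgeR). *Ccr6*, the receptor for CCL20, had 1089, 1599.8 and 1430.0 against 34.3, 8.72 and 30.9 in cDC1s (5.797, SE 0.56, adjusted p = 0.000102, edgeR), and *Cxcr5*, the receptor for the follicular chemokine CXCL13, had 148, 209.9 and 184 against 11.4, 12.6 and 33.2 in cDC1s. These receptors separated the subsets fully, and the log2 fold change of *Cxcr5* was 3.25, or 3.89 without cDC1 replicate 3. *Ccr7*, which guides DCs toward T cell zones, had 99522, 94821 and 107372 against 45252, 29410.2 and 52755 in cDC1s. *Ccrl2*, an atypical receptor that binds chemerin, had 26885, 33368 and 25031 against 2819, 2822 and 2579.7 in cDC1s. *S1pr5* had 30.8, 34.5 and 69.8 in T-bet+ cDC2s and no read in cDC1s, at least 43.8-fold higher. On the cDC1 side *P2ry14*, a receptor for UDP-glucose, had 7858, 9432 and 9589 in cDC1s against 43.9, 40.7 and 14.7, *Cxcr3* 1941, 1639 and 2147 in cDC1s against 72.0, 51.4 and 33.4, and *Ccr9* 1277, 1508 and 579 in cDC1s against 60.8, 128 and 67.8. *S1pr1*, which senses sphingosine-1-phosphate as *S1pr5* does, had 26.7, 16.5 and 121 in cDC1s and 0.935, 0 and 0 in T-bet+ cDC2s. Without T-bet+ replicate 1 the log2 fold change of *S1pr1* was -8.76 against -6.97, and the call of *S1pr5* was lost in 1 of the 6 fits that left out 1 sample. The T-bet- cDC2s held 42.1 for *S1pr1* and 201 for *S1pr5*.

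Integrins, which mediate adhesion, were higher in T-bet+ cDC2s for 5 and lower for 6 of 21 tested. The higher 5 included *Itgam*, which follows from the sort. *Itgae*, which encodes CD103, had 7255, 8716 and 8902 in cDC1s and 14.96, 6.2 and 29.5 in T-bet+ cDC2s. *Itga8* had 1057, 1753 and 2710.1 in cDC1s against 0, 0.886 and 14.7, and *Itga1* 413, 476 and 389 in cDC1s against 4.67, 2.66 and 0.983. By the fitted fold changes the 3 α chains were 491, 354 and 146 times higher in cDC1s. Without T-bet+ replicate 3 the log2 fold changes of *Itgae* and *Itga8* were -9.61 and -11.64 against -8.94 and -8.47. *Itgb3*, the β3 chain, had 252, 413 and 479.6 in T-bet+ cDC2s and 10.5, 5.81 and 11.4 in cDC1s (5.36, SE 0.51, adjusted p = 0.0001, edgeR), and *Itga9* had 89.7, 31.0 and 27.5 against 0, 1.94 and 1.14 in cDC1s. For *Itga9* this was 5.44 on the log2 scale, or 4.68 without T-bet+ replicate 1. *Itgad* and *Itgb2* had smaller differences (1.14 and 0.66) and lost their calls in 4 and 6 of the 6 fits that left out 1 sample. The call of *Itgad* was lost with the replicate block too, and 3 integrins were called higher in T-bet+ cDC2s with it.

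The Notch pathway acts between neighbouring cells through ligands, receptors, the factor RBPJ and its MAML coactivators. Of 32 genes tested, 3 were higher in T-bet+ cDC2s and 8 lower (median -0.06). The target *Dtx1* differed most, as given above, while its relative *Dtx4* went the other way, with 451, 485 and 395 in cDC1s and 76.6, 47.8 and 72.7 in T-bet+ cDC2s. Among receptors *Notch2*, on which splenic cDC2s depend, had 1970.3, 2385 and 1933 in T-bet+ cDC2s and 1999, 4820.5 and 1635 in cDC1s and did not pass (-0.43, SE 0.37, adjusted p = 0.51, edgeR). *Notch4* had 834, 1015 and 178 in cDC1s against 90.7, 68.2 and 48.2. Its call (adjusted p = 0.035, edgeR) was lost with the block (0.097) and without any 1 of the T-bet+ samples, cDC1 replicate 1 or cDC1 replicate 2. The ligand gene *Jag2* had 269, 289.6 and 248 in cDC1s against 35.5, 0 and 54.1. It was called at 0.049 by edgeR, but not with the block (0.091). The call was also lost in 5 of the 6 fits that left out 1 sample, that without cDC1 replicate 3 included. Without T-bet+ replicate 3 its log2 fold change was -3.92 against -3.17. The coactivators diverged, with *Maml3* at 92.5, 206 and 177 in T-bet+ cDC2s and 24.8, 27.1 and 19.4 in cDC1s and *Maml2* at 18.7, 9.74 and 6.88 against 59.1, 101 and 172 in cDC1s. The targets *Hes1* and *Nrarp* did not pass (0.90 and 2.33). With the replicate block 2 genes of the pathway were higher and 2 lower, and without cDC1 replicate 3, 3 and 4.

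Costimulatory and checkpoint molecules were higher in T-bet+ cDC2s for 14 and lower for 5 of 37 tested (median 0.66). The B7 ligands did not move together. *Cd86* had 13482, 15586 and 18584 in cDC1s and 4281, 4232 and 3193 in T-bet+ cDC2s (-2.03, SE 0.26, adjusted p = 0.00061, edgeR), *Cd80* did not pass (0.67, SE 0.28), and the ligands of PD-1 were higher, *Cd274* by 1.63 and *Pdcd1lg2* by 4.12. *Pdcd1lg2* had 795, 861 and 987 in T-bet+ cDC2s and 47.7, 29.1 and 75.5 in cDC1s. *Ctla4*, an inhibitory receptor that binds both B7 proteins, had 770.1, 1342 and 919.8 in cDC1s and 0, 2.66 and 3.93 in T-bet+ cDC2s, with a mean of 11.4 in T-bet- cDC2s. *Btla*, another inhibitory receptor, had 9866, 15370.0 and 18534 in cDC1s against 1034, 1331 and 987. *Cd72*, an inhibitory receptor known from B cells, had 2908, 2961 and 3417 in T-bet+ cDC2s and 47.7, 31.0 and 58.3 in cDC1s (6.08, SE 0.30, adjusted p = 2.5e-06, edgeR). *Tnfsf8*, which encodes CD30 ligand, had 336, 507 and 334 against 7.62, 28.1 and 3.43 in cDC1s. The samples of the subsets stood apart for each of these genes. Without 1 sample the log2 fold changes went as far as -9.42 for *Ctla4* (T-bet+ replicate 3) from -8.78 and 6.01 for *Tnfsf8* (cDC1 replicate 2) from 4.88. *Cd40* did not pass (0.23, SE 0.22). *Cd83* was higher by 0.66, and its call (adjusted p = 0.018, edgeR) was lost with the block (0.052). It was also lost in 4 of the 6 fits that left out 1 sample, that without cDC1 replicate 3 (0.061) included.

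Interferon-stimulated genes were higher in T-bet+ cDC2s for 16 of 33 tested and lower for 2 (median 1.12). Sensors of viral RNA and the enzymes they work with were in part among the higher genes. *Ifih1* and *Dhx58*, which encode the sensors MDA5 and LGP2, and the synthetase genes *Oas3* and *Oasl1* did not pass, with log2 fold changes of 1.02, 0.36, 1.12 and -0.27. *Oas2*, an oligoadenylate synthetase, had 310.3, 394 and 314 in T-bet+ cDC2s and 0, 9.69 and 0 in cDC1s, and *Oas1a* 1662, 1694 and 1566 against 49.6, 30.0 and 56.1 in cDC1s. *Ddx58*, which encodes RIG-I, had 1749.7, 2279 and 1420.2 against 44.8, 68.8 and 135 in cDC1s. The groups were clear of each other for all 3, and the log2 fold change of *Oas2* was 6.62, or 11.35 without cDC1 replicate 2. *Rtp4* had 1453, 1839.8 and 1501 against 23.8, 14.5 and 12.6 in cDC1s (6.54, SE 0.35, adjusted p = 3.9e-06, edgeR), and *Isg15* 3404, 2866 and 2372 against 392, 292 and 296 in cDC1s. *Ifit1* and *Ifit3*, which bind viral RNA, were higher by 4.18 (4.84 without cDC1 replicate 3) and 4.37. Other genes of the list did not follow. *Mx1*, an antiviral GTPase, had 1033, 1432 and 1619 in cDC1s and 173, 159 and 386 in T-bet+ cDC2s (-2.51, SE 0.37, adjusted p = 0.0014, edgeR), *Trim30a* was lower by the test too (-1.13, lost in 3 of the 6 fits without 1 sample), and *Irf7*, *Stat2*, *Irf9* and *Mx2* did not pass, with log2 fold changes of -0.20, -0.02, 0.24 and -0.22. The receptor gene *Ifnar1* was lower (-0.80, adjusted p = 0.024, edgeR), a call lost with the block (0.067). It was also lost in 5 of the 6 fits that left out 1 sample, that without cDC1 replicate 3 included.

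Receptors for Fc and complement were higher in T-bet+ cDC2s for 7 and lower for 3 of 17 tested. *Fcer1g*, the signalling γ chain shared by Fc receptors, had 16747, 13087 and 16848 against 413, 340.0 and 487 in cDC1s, and *C5ar2*, a receptor for C5a, had 159.8, 173 and 168 in T-bet+ cDC2s and 1 read in all cDC1 samples together, a ratio of 494 (95% exact Poisson interval 88.6 to 19493). *Fcrla* was higher in cDC1s, with 1686, 1397 and 1389.9 against 36.5, 6.2 and 62.9. The log2 fold changes of *C5ar2* and *Fcrla* were 8.48 and -5.41, or 10.40 without cDC1 replicate 3 and -6.13 without T-bet+ replicate 3. *Fcrl5*, *Fcer2a* and *Cr2*, all known from B cells, were higher in T-bet+ cDC2s by 6.999, 5.25 and 4.74. The log2 fold change of *Fcer2a* was 9.43 without cDC1 replicate 3 and that of *Cr2* 4.10 without cDC1 replicate 1, and the call of *Cr2* was lost in 1 of the 6 such fits. B cell genes as a list were also higher there by their sum, as given above, with means in T-bet+ cDC2s and cDC1s of 625 and 67.2 for *Cd79b*, 5848 and 458 for *Cd22*, 714 and 13.7 for *Blk* and 0.312 and 0.318 for *Pax5*. Their part in these differences was not tested. Receptors for dead cells and scavenger receptors divided into 4 higher and 4 lower of 23. *Cd36* had 11009.6, 15982 and 18956 in cDC1s and 169, 145 and 54.1 in T-bet+ cDC2s, and *Scarb1* 7246, 7660.3 and 5847 in cDC1s against 1969, 2128 and 1463, while *Cd300lf*, which binds phosphatidylserine, had 5057, 4775 and 5090.1 in T-bet+ cDC2s and 207, 180.2 and 264 in cDC1s and *Lrp1* 532, 569 and 503 against 39.1, 36.8 and 85.8 in cDC1s. Among receptors for growth factors and cytokines, 7 were higher and 4 lower of 37. *Il1r2*, the decoy receptor for IL-1, had 43600.2, 27866 and 16444 against 1308, 949 and 756 in cDC1s, *Il2rg*, the common γ chain, 9638, 9769 and 9770.5 against 983, 834 and 1658 in cDC1s, and *Csf1r* 6216, 4865 and 5609 against 644, 799 and 985 in cDC1s. The last had 71812, 44474 and 56952 in T-bet- cDC2s. *Flt3* and *Kit* did not pass (-0.31, SE 0.40, and 0.17, SE 0.38).

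Glycolysis genes divided evenly, with 9 higher and 9 lower of 27 tested (median -0.24). Among hexokinases *Hk3* had 7297, 5989.6 and 8991 in cDC1s and 87.9, 86.8 and 47.2 in T-bet+ cDC2s (-6.65, SE 0.40, adjusted p = 6.4e-06, edgeR), whereas *Hk1* and *Hk2* did not pass. The lactate dehydrogenase genes went apart, *Ldha* lower by the test (-0.71) and *Ldhb* higher (3.73), and so did the monocarboxylate transporters *Slc16a1* (-2.35) and *Slc16a3* (2.84). The glucose transporter *Slc2a3* had 5235, 6066 and 5239 in T-bet+ cDC2s and 151, 193 and 259 in cDC1s (4.78, SE 0.29, adjusted p = 7.02e-06, edgeR), and *Slc2a1* and *Slc2a6* were higher by 1.56 and 1.41. The enolase genes *Eno1* and *Eno3* were higher too (adjusted p = 0.0014 and 0.00048, edgeR), while *Pfkp*, *Pgk1* and the aldolase genes *Aldoa* and *Aldoc* were lower (-2.88, -1.46, -0.87 and -2.72). The calls of *Ldha*, *Slc2a6*, *Slc2a1*, *Slc16a1* and *Aldoa* were lost in 5, 4, 1, 1 and 1 of the 6 fits that left out 1 sample. Of 34 genes of cholesterol synthesis and transport, 1 was higher and 6 lower (median 0.22). This share called, 20.6%, was near the 18.2% of all genes. The lower 6 held *Psap*, the regulator *Insig2* (-1.79) and 3 enzymes of synthesis, *Lss*, *Nsdhl* and *Fdps* (-1.33, -1.19 and -0.93), and without 1 sample the calls of *Lss* and *Fdps* were lost in 2 and 4 of 6 fits, and that of *Fdps* with the block (adjusted p = 0.065, edgeR). *Npc1* and *Npc2*, which act together in export of cholesterol from lysosomes, differed in opposite directions, *Npc1* at 1191, 966 and 1125 in T-bet+ cDC2s and 284, 257 and 173 in cDC1s and *Npc2* at 3694, 3077 and 3462 against 12968, 9461 and 11022 in cDC1s.

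Of 40 cell cycle genes tested, 1 was called, *Cenpe* (1.30, adjusted p = 0.042, edgeR), a share below the 18.2% of all genes, and none with the replicate block (0.052) or in any fit without 1 of the 6 samples for this gene. *Mki67* had 730.0, 942 and 827 in T-bet+ cDC2s and 471, 499.8 and 355 in cDC1s (0.91, SE 0.54, adjusted p = 0.295, edgeR), and 32 of the 40 were above 0, with a median of 0.45 against 0.03 for all tested genes. Genes of mature migratory DCs were called higher for 3 and lower for 3 of 19. *Ccr7*, *Samsn1* and *Cd83* were higher, *Laptm4b*, *Ccl22* and *Apol7c* lower, with the call of *Samsn1* lost in 4 of the 6 fits without 1 sample and that of *Cd83* as given above, and *Fscn1*, which encodes the actin bundler fascin, did not pass (0.33, SE 0.42).

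Counts over the lists that are not given above also moved between fits. With the replicate block, 5 TLR genes, 6 genes of MHC class II presentation, 8 positioning receptors, 12 costimulatory and checkpoint molecules, 14 interferon-stimulated genes and 2 genes of mature migratory DCs were called higher in T-bet+ cDC2s. Called lower with the block were 19 cDC1 markers, 6 chemokines, 3 interferon-stimulated genes, 3 scavenger receptors, 3 growth factor and cytokine receptors, 8 glycolysis genes, 5 genes of cholesterol synthesis and transport and 1 cathepsin. Without cDC1 replicate 3, the genes called higher were 5 TLR genes, 9 transcription factors, 4 integrins, 13 costimulatory and checkpoint molecules, 17 interferon-stimulated genes, 8 Fc and complement receptors, 5 scavenger receptors, 9 growth factor and cytokine receptors, 2 genes of cholesterol synthesis and transport and 2 of mature migratory DCs. In the same fit 19 cDC1 markers, 5 chemokines, 2 cytokines, 1 interferon-stimulated gene, 3 scavenger receptors, 3 growth factor and cytokine receptors, 8 glycolysis genes and 5 genes of cholesterol synthesis and transport were called lower.

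**Figure D3:**
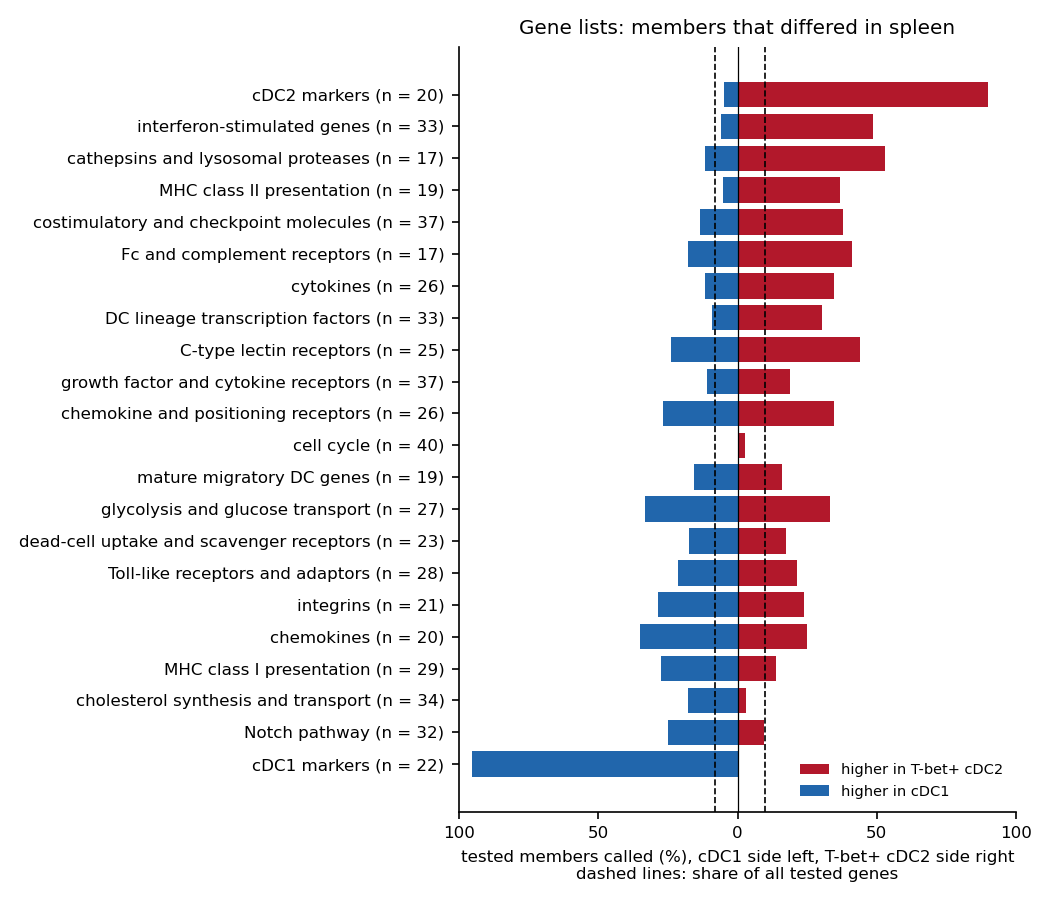
Share of the tested members of each of 22 gene lists called higher in T-bet+ cDC2s (red, to the right) and higher in cDC1s (blue, to the left), in percent of members tested. Dashed lines mark the shares over all tested genes, 9.97% and 8.2%. Cell cycle genes lie inside both lines and the cDC1 and cDC2 marker lists lie farthest outside.

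The same comparison was available in MLN, from 2 samples of T-bet+ cDC2s and 3 of cDC1s. The rank correlation with the GC content of transcripts was -0.06 and -0.22 in these T-bet+ samples and -0.03, 0.20 and 0.25 in these cDC1 samples. In spleen all T-bet+ samples had positive values, so the layout differed between the tissues. No fit held a term for this in MLN, and its part in the fold changes there was not tested. There 952 of 15298 genes were called (6.22%), 629 higher in T-bet+ cDC2s and 323 higher in cDC1s. With the replicate number as a block the count was 539, DESeq2 gave 2204, and without T-bet+ replicate 1, cDC1 replicate 2 or cDC1 replicate 3 the counts were 369, 522 and 391. The T-bet- cDC2 samples of the MLN are named 2 and 3 in their titles, which also label them replicates 1 and 2. They entered the block as 1 and 2, so it joined samples whose names carry different numbers. Of the 2613 genes called in spleen, 2547 were tested in MLN, and 2391 of these (93.9%) had the same sign there, against 66.9% of the 11223 genes tested in both tissues that were not called in spleen. Of the 2547 genes, 759 (29.8%) were called in MLN, and 758 of them in the same direction. In the other direction 82.6% of the genes called in MLN and tested in spleen were called in spleen. Of the 140 genes that the naming rule selected in spleen, 137 had the same sign in MLN and 81 were called there. The 3 exceptions, *Apol7c*, *Ccr7* and *Ccl5*, had MLN log2 fold changes of 0.49 (SE 0.74), -0.43 (SE 0.65) and -0.40 (SE 0.69) and did not pass there.

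*Sirpa* in MLN had 15115 and 5782 normalized counts in T-bet+ cDC2s and 53.6, 202 and 39.1 in cDC1s (6.74, SE 0.81, adjusted p = 0.0042, edgeR). *Tlr3* had 15166, 4139 and 6227 in cDC1s and 229 and 378 in T-bet+ cDC2s (-4.81, SE 0.81, adjusted p = 0.015, edgeR). The TLR genes kept their sides, with *Tlr7* at 8.34, *Tlr5* at 4.86 and *Tlr12* at -3.96, and *Tlr11* at -2.07 without passing (adjusted p = 0.074, edgeR). So did *Irf8* (-4.22), *Zeb2* (4.61), *Clec4a4* (8.91) and *Cybb* (5.57), all called in MLN. cDC1 markers were lower for 21 of 22 in MLN, 16 of them called, and cDC2 markers higher for 17 of 20, 11 of them called. Interferon-stimulated genes were higher for 20 and lower for 13 of 33 in MLN, with 8 called higher and 1 lower. Cell cycle genes had no call there, with 36 of 40 above 0 and a median of 0.70 against -0.0021 for all genes tested in MLN.

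**Figure D4:**
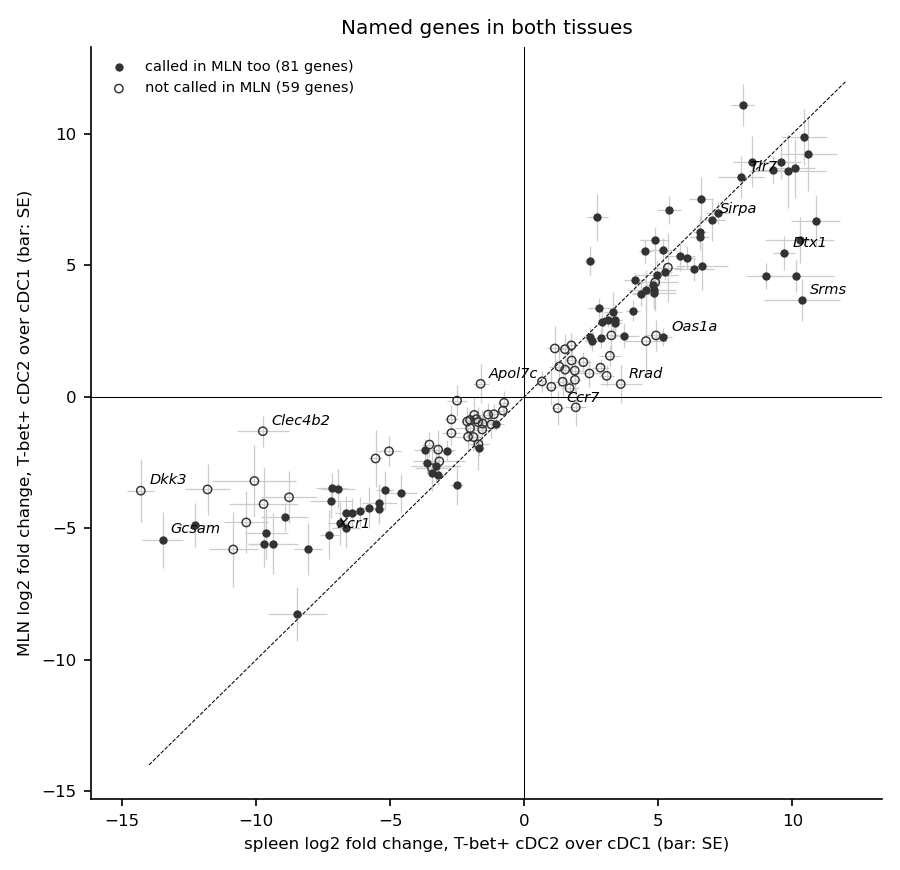
Log2 fold changes of T-bet+ cDC2s over cDC1s in spleen (x axis) and MLN (y axis) for 140 genes that a fixed rule named from the spleen values, with SE bars and the line of equal values (dashed). Filled points (81 genes) were called in MLN too. In 137 genes the sign is the same.

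Whether the fold change differed between tissues was tested over 16795 genes of all 16 RNA samples. The test called 15 genes (0.0893%), while 1424 had an unadjusted p under 0.05. DESeq2 called 248, the fit without spleen cDC1 replicate 3 called 6 and one with a term for library class 4. Of the genes named above, *Dtx1*, *Clec4b2*, *Gcsam* and *Oas1a* were among the 15. *Dtx1* in MLN had 833 and 375 in T-bet+ cDC2s and 4.37, 13.2 and 22.7 in cDC1s, and its fold change was larger in spleen by 4.28 on the log2 scale (SE 0.73, adjusted p = 0.046, edgeR). *Clec4b2* had 39.3 and 31.6 in T-bet+ cDC2s and 132, 42.8 and 89.1 in cDC1s of the MLN, so that the large spleen difference was not seen there (-1.31, SE 0.59). *Adgrl3*, an adhesion receptor, had 1801 ± 186 in T-bet+ cDC2s and 629 ± 242 in cDC1s of the spleen. Its log2 fold change was 1.52 in spleen and 8.75 in MLN, where the difference was thus larger. *Pdcd1lg2*, which was higher in T-bet+ cDC2s of the spleen, was at -0.71 in MLN (difference 4.88, SE 0.68, adjusted p = 0.018, edgeR). Without spleen cDC1 replicate 3 the difference of *Clec4b2* kept an adjusted p of 0.0178, those of *Adgrl3* and *Pdcd1lg2* 0.00111 and 0.0167, and *Dtx1*, *Oas1a* and *Gcsam* were not called (0.0586, 0.0586 and 0.069, edgeR). With the term for library class *Clec4b2*, *Adgrl3* and *Oas1a* were called (adjusted p = 0.0212, 0.0026 and 0.00574, edgeR), and *Pdcd1lg2*, *Dtx1* and *Gcsam* were not (0.0549, 0.159 and 0.133). The other 9 were *Gp2*, *Sh3pxd2b*, *Cd209b*, *Pde1b*, *St14*, *Igsf6*, *Ifi205*, *Olfm1* and *Gfod2*.

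Open chromatin was measured by ATAC-seq in 2 spleen samples of each subset, as reads in windows of 150 bases around peak summits. Over 166547 windows 38316 (23%) were called at an adjusted p under 0.01 and a log2 fold change over 0.5 in size. Of the 140 named genes, 71 had a tested window within 2000 bases of their annotated start. Their 289 windows held 86 that were called (29.8%, against 17% of the windows at the starts of all tested genes), 36 more open in T-bet+ cDC2s and 50 more open in cDC1s. Of the 86, 81 went in the direction of the RNA. These windows are not independent, as neighbours can overlap and share reads. Of the called windows 8 lay at *Efcc1* and 5 each at *Clec4b2* and *Maml3*. The same share over all called windows at genes called by RNA is not given here. Taking the window nearest to the start, 13 of the 39 genes higher in T-bet+ cDC2s had it called more open there and 1 called less open, while of the 32 genes higher in cDC1s 13 had it called more open in cDC1s and 0 in T-bet+ cDC2s. Over all 6036 tested genes with a window, the nearest window was called more open in T-bet+ cDC2s for 27.9% and in cDC1s for 4.32%, with a median log2 fold change of 0.37. Of the 675 genes with RNA called higher in T-bet+ cDC2s, 34.2% had the nearest window called more open there and 2.22% more open in cDC1s. Of the 583 genes with RNA called higher in cDC1s, 20.1% had it called more open in T-bet+ cDC2s and 14.4% more open in cDC1s, with a median of 0.16, unlike the named genes among them. Scaling by library size only moved the median of all windows from -0.0049 to -0.18 and changed these shares. With it the nearest window was called more open in T-bet+ cDC2s for 14.65% of the 6036 genes and in cDC1s for 5.53%, with a median of 0.19. For the 583 genes higher in cDC1s the order turned, with 9.09% more open in T-bet+ cDC2s and 16.8% in cDC1s. Of the named genes, 12 of the 39 were then called more open in T-bet+ cDC2s and 2 less open, and 18 of the 32 more open in cDC1s and 0 in T-bet+ cDC2s. The medians were 0.67 for the named genes higher in T-bet+ cDC2s and -0.52 for those higher in cDC1s, and 0.49 and -0.70 with library size only.

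**Figure D5:**
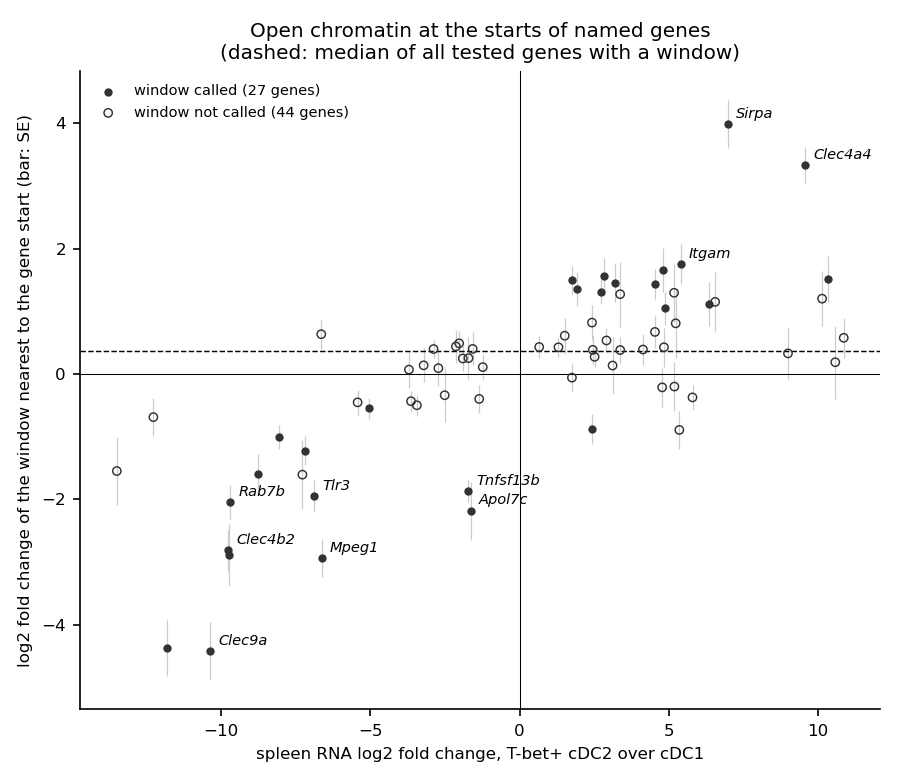
For the 71 named genes with a window, the log2 fold change of the ATAC-seq window nearest to the gene start (y axis, T-bet+ cDC2 over cDC1, SE bars, 2 samples each) against the log2 fold change of the RNA in spleen (x axis). The dashed line marks the median of all tested genes with a window. *Sirpa* and *Clec4a4* lie highest, and *Clec9a* and its unlabelled neighbour *Mab21l3* lie lowest.

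The window nearest to *Sirpa* was more open in T-bet+ cDC2s by 3.98 on the log2 scale (SE 0.38, adjusted p = 8.7e-14, edgeR) and that nearest to *Clec4a4* by 3.33 (SE 0.29). Toward cDC1s the nearest windows of *Clec9a*, *Mab21l3*, *Mpeg1*, *Tlr3* and *Rab7b* differed by -4.42, -4.37, -2.94, -1.95 and -2.04. The windows that went against the RNA lay at *Cd300a*, *Il15ra*, *Maml2* (2 windows) and *Cd86*. At *Cd86*, whose RNA was higher in cDC1s, a window 1030 bases before the start was more open in T-bet+ cDC2s by 2.54.

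The sequences of 4 called windows at named genes are printed to show the letters under large differences. Of the 37 windows that went with the RNA and overlapped no annotated exon, they are the *Sirpa* window, among the 2 most shifted toward T-bet+ cDC2s, the 2 most shifted toward cDC1s, with 1 window per gene, and the window of *Xcr1*, which holds a match to the ETS-IRF composite. All are read from GRCm38 (mm10) on the plus strand. Capitals mark matches, on either strand, to any of 8 short motifs searched, which are GGTGTGA (T-box), TGANTCA (AP-1), GAGGAAGT (PU.1), the ETS-IRF composite (GGAA and GAAA with 2 bases of any kind between), the interferon response element or ISRE (GAAA and GAAA with 2 bases between), TGTGGTT (Runx), GGGNGTG (KLF) and TGGGAA (RBPJ), and matches of different motifs can overlap. The windows were chosen after their values were seen.

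Sirpa, chr2:129592023-129592172: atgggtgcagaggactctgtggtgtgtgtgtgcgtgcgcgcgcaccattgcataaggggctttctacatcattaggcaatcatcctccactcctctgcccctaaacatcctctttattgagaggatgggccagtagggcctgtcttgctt

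Clec4b2, chr6:123171469-123171618: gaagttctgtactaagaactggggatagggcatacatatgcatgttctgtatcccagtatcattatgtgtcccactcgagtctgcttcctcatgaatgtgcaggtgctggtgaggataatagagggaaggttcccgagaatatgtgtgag

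Rab7b, chr1:131690246-131690395: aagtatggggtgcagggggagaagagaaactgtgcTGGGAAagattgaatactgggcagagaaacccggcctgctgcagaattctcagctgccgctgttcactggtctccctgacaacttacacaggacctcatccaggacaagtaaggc

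Xcr1, chr9:123863318-123863467: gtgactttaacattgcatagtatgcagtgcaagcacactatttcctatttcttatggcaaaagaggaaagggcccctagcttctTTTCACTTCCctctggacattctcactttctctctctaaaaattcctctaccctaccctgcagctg

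The *Sirpa* window lies 738 bases before the start of the gene, outside any annotated gene, and had 112 and 82.8 normalized reads in T-bet+ cDC2s and 4.18 and 8.05 in cDC1s. It holds none of the 8 motifs. The *Clec4b2* window, 1350 bases before the start, had 45.0 and 62.1 reads in cDC1s and 0.958 and 1.84 in T-bet+ cDC2s and holds no match. The *Rab7b* window lies in an intron, 1625 bases after the start, with 42.9 and 39.1 reads in cDC1s and 4.79 and 2.76 in T-bet+ cDC2s, and holds 1 RBPJ match. The *Xcr1* window, 1363 bases before the start, had 92.0 and 140.3 reads in cDC1s and 24.9 and 21.2 in T-bet+ cDC2s. In all 4 windows the samples of the subsets were apart.

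Over all 166547 tested windows, the ETS-IRF composite was present in 10.4% of the 19957 windows more open in cDC1s, 2.05% of the 18359 more open in T-bet+ cDC2s and 3.33% of all. The ISRE was in 6.05%, 1.56% and 2.45% in the same order. The Runx motif ran the other way, with 4.96% of the windows more open in cDC1s, 9.95% of those more open in T-bet+ cDC2s and 5.35% of all, as did the KLF motif with 9.26%, 16.9% and 12.9%. The T-box motif was in 2.28%, 3.19% and 2.41%. The PU.1 motif was in 9.09% and 9.18% of the windows of either direction and 5.81% of all, and the AP-1 motif in 11.4%, 12.9% and 8.16%. The RBPJ motif was in 16.6% of the windows more open in cDC1s, 12.9% of those more open in T-bet+ cDC2s and 13.7% of all. These shares were not tested, and a match is no evidence of binding.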

How the data were processed

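RNA was amplified with SMART-Seq v4 from sorted cells. HISAT2 (version 2.1.0) and mm10 were used by the authors for alignment. They kept uniquely aligned reads (SAMtools 1.9) and deposited counts of reads per gene, without normalization, made by Rsubread on a GENCODE annotation. Whether counting used strand is not stated, so overlapping and antisense genes are uncertain. For ATAC-seq the authors aligned with Bowtie2 (2.2.5), shifted reads for the transposase, called peaks on all replicates together with MACS2 (2.1.1.20160309) and deposited counts of reads in summit windows of 150 bases. No column of values went unused for want of a sample.

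Counts were tested with edgeR 4.0.16 in R 4.3.3 (TMM, filterByExpr by subset, quasi-likelihood test, Benjamini-Hochberg adjustment). The spleen fit held 9 samples, 3 per subset, the MLN fit 7 and the ATAC-seq fit 6. Samples pool 2 mice each, so p-values measure the spread between pools. Their precision rests on 20993220 to 27299012 counts on genes in the 6 samples and 7270164 to 10081555 in windows. Intervals and the floor of 3 counts cover counting error only. The fits were tested on simulated data, drawn without pairing between samples. With 200 genes changed 8-fold in counts simulated for the spleen comparison (14377 genes), edgeR recovered 166 with 4 false calls and DESeq2 192 with 60. With 200 windows changed 4-fold in simulated ATAC-seq counts (166547 windows), edgeR recovered 122 with 2 false calls and DESeq2 85 with 0.

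Same-numbered spleen samples deviated together (r = 0.43, 0.20 and 0.18 over 8366 genes), while different-numbered samples had r from -0.40 to 0.17. With 3 samples per subset these values do not establish that the numbers pair the samples. The study's methods describe sorting pooled cells into the 3 subsets, without saying whether samples of the same number shared a pool. The main fit holds no term for pairing. The fit with the replicate number as a block is given where it changed the call of a gene described, and in counts for the gene lists. Alternatives were DESeq2 1.42.0, its size factors, filters on low counts, the 6 samples alone, a newer edgeR dispersion, a term for library class (the sign of the GC correlation, beyond 0.1) and each sample left out. Members and lists were chosen with earlier results of these data known. Named genes were the 4 markers, the 12 largest log2 fold changes and 10 highest levels in each direction and up to 3 called members with a mean of at least 50 counts per list and direction. Other genes in the text were chosen after their values were seen. Gene positions and sequences came from GENCODE and GRCm38. The authors' peak files were not used. A few named genes and a window are not reported here.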

Additional observations from a re-analysis of the deposited data

Results flagged for a closer look

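Of the 140 named genes, 4 had a difference between T-bet+ cDC2s and cDC1s that itself differed between spleen and MLN by the test over all 16 RNA samples. The test rested on 2 T-bet+ samples in MLN. For *Clec4b2* the difference of the log2 fold changes, spleen minus MLN, was -8.44 (SE 1.08, adjusted p = 0.01, edgeR). Its log2 fold change was -9.75 in spleen and -1.31 in MLN. For *Gcsam* the difference was -8.06 (SE 1.35, adjusted p = 0.045, edgeR), with -13.50 in spleen and -5.44 in MLN. Its MLN normalized counts were 9808, 3772 and 4681 in cDC1s and 20.6 and 261 in T-bet+ cDC2s. Both genes had 3 or fewer reads in all spleen T-bet+ samples together, so the size of the spleen value depends on the prior count of the fit. For *Dtx1* the difference was 4.28 (SE 0.73, adjusted p = 0.046, edgeR), with 9.69 and 5.46. For *Oas1a* it was 2.92 (SE 0.47, adjusted p = 0.041, edgeR), with 5.18 and 2.27. MLN T-bet+ cDC2s had 1711 and 1133 normalized counts of *Oas1a* and MLN cDC1s 417, 202 and 266. Without spleen cDC1 replicate 3 the adjusted p was 0.0178 for *Clec4b2*, 0.0586 for *Oas1a* and *Dtx1* and 0.069 for *Gcsam*, and with library class as a term 0.0212, 0.00574, 0.159 and 0.133 in the order *Clec4b2*, *Oas1a*, *Dtx1* and *Gcsam* (edgeR).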

How the results depend on the processing

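Of the 140 named genes, 125 kept their direction and call in all 14 alternatives of the spleen comparison that tested them, none reversed and 15 lost the call in at least 1. With at least 10 counts required in every sample, 94 kept the call, 1 lost it and the rest were not tested. The spleen count of 2613 was 1920 with the replicate block and 1898 to 3417 in the other alternatives that kept all samples, and without 1 sample each 1749 to 2269 (higher in T-bet+ cDC2s 920 to 1162, higher in cDC1s 723 to 1165). The block changed the call of 12 named genes, all given above as losing it or listed here (*Ctse* and *Maml1* were the others, adjusted p = 0.052 and 0.054, edgeR), and of no other named gene. In MLN the counts in all, higher in T-bet+ cDC2s and higher in cDC1s were 952, 629 and 323, but 2204, 1198 and 1006 by DESeq2, 2257, 1300 and 957 without a filter on low counts and 539, 370 and 169 with the replicate block, whose 2 pairs do not show that the numbers pair the MLN samples (r = 0.668 for both). Without 1 MLN sample each they were 369 to 1101, 294 to 710 and 68 to 391. Leaving out a sample of a pair leaves 1 T-bet+ sample in MLN, which is assumed to vary like the others. The 15 differences between tissues were 248 by DESeq2, 4 with library class as a term and 6 without spleen cDC1 replicate 3. Called windows at named genes were 59 to 86 and called members of the gene lists 191 to 276. The cause of these shifts was not tested. Depth limits genes of few reads, and for the 93 and 26 called genes at 0 in a whole subset the fitted fold change is no bound.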

Other observations

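Several genes outside the named ones had a T-bet+ cDC2 to cDC1 difference that differed between tissues. *Gp2*, a glycoprotein that binds type 1 fimbriae of bacteria, was lower in T-bet+ cDC2s than in cDC1s of the spleen by its log2 fold change of -1.70, which did not pass, and higher in MLN (4.93), a difference of -6.60 (SE 0.85, adjusted p = 0.01, edgeR). *Adgrl3* had 1.52 in spleen and 8.75 in MLN (difference -7.21, SE 0.69, adjusted p = 0.00078, edgeR). *Cd209b*, a lectin of the SIGN family, had 5.46 and 1.65, and *St14*, which encodes the protease matriptase, 3.81 and -0.27. *Olfm1* went from -3.23 in spleen to 1.58 in MLN. Without spleen cDC1 replicate 3 the differences of *Cd209b* and *St14* were not called (adjusted p = 0.0586 and 0.069, edgeR), nor were those of *Cd209b*, *St14* and *Olfm1* with library class as a term (0.0549, 0.133 and 0.125). *Gp2*, *Adgrl3* and, without that sample, *Olfm1* kept theirs (0.0167, 0.00111 and 0.00965 without it, and 0.0402 and 0.0026 for *Gp2* and *Adgrl3* with library class). These genes were chosen because the test called them.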
